A study of Mus musculus with 12 samples.

Results

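The genes described here encode the constitutive proteasome, the particle that degrades most ubiquitin-tagged proteins, together with its activators, an inhibitor and assembly chaperones. They were taken from the deposited gene table by symbol: every row beginning with Psma to Psmg and followed by a digit, leaving out Psmb8, Psmb9 and Psmb10, the exchangeable subunits of the immunoproteasome. The table held 49 such rows among 16570 genes, and 46 remained as members: 15 of the 20S core, 21 of the 19S cap, and 10 activators, regulators and assembly factors. All 46 passed the filter on low counts, which kept 12168 genes. The name pattern also caught Psmc3ip, a cofactor of meiotic recombination that is no proteasome subunit, and it is counted with the cap below because the rule places it there.

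The libraries came from bone marrow-derived macrophages of C57BL/6J mice aged 6 to 8 weeks, grown in 50 ng/mL M-CSF, the cytokine that keeps macrophages and their precursors alive. There were 4 groups of 3 libraries, each treated for 2 days after 2 days of M-CSF alone, per the labels: M-CSF alone, M-CSF with 100 ng/mL RANKL (the cytokine that drives osteoclast formation), and M-CSF with RANKL plus 1 µM of either BMS309403, which blocks FABP4 (a carrier of fatty acids), or RHC80267, which blocks diacylglycerol lipase. M-CSF was thus common to all 12 libraries, and RANKL to all but the M-CSF group. The labels name no vehicle for the groups without an inhibitor and do not say whether the 3 libraries of a group came from separate animals or cultures, so the p-values measure the spread between these libraries, which may be technical. Beyond counting noise, that spread was small, with a coefficient of variation of 0.037 over all genes tested. The labels' description of culture also gives 4 days of RANKL for osteoclast formation, while their description of treatment gives 2 days for these libraries, which is the time used here. The RANKL groups are labelled osteoclast by source and macrophage by cell type.

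Library totals ran from 17760844 to 18344989 expected counts. The summed level of 6 macrophage markers (Csf1r, Adgre1, Cd68, Mertk, Fcgr1 and Itgam) was at 9049 to 9493 CPM (counts scaled to library size) in M-CSF, 6469 to 6636 in RANKL, and 6812 to 7079 and 6064 to 6091 under BMS309403 and RHC80267, and 4 of the 6 fell with RANKL. Summed osteoclast markers (Acp5, Ctsk, Dcstamp, Ocstamp, Calcr and Oscar) were at 11.4 to 15.7 CPM in M-CSF. They were at 4445 to 5414 CPM in RANKL, and the inhibitor groups lay below that range (BMS309403, 3545 to 3887) and above it (RHC80267, 8657 to 9830). All 6 rose with RANKL and with RHC80267, and 5 of 6 fell with BMS309403. The part of these differences in macrophage and osteoclast marker RNA in the results on the members was not tested. B cell markers summed to at most 5.94 CPM and T cell markers to at most 0.836 CPM in a library, and no marker of any list was at 0 in all 12.

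In the proteasome, 7 different alpha and 7 different beta subunits stack into the barrel-shaped 20S core, and the active sites sit on the beta subunits Psmb6, Psmb7 and Psmb5. The 19S cap recognises ubiquitin chains, removes them and unfolds the substrate with a ring of Psmc ATPases, while Psmd genes encode its other subunits and some of its assembly chaperones. Alternative activators dock on the same barrel: Psme1 and Psme2 form the interferon-inducible PA28 alpha/beta ring, Psme3 the nuclear PA28 gamma ring and Psme4 the protein PA200. Interferon also induces Psmb9, Psmb10 and Psmb8, which take the places of Psmb6, Psmb7 and Psmb5. Macrophages use these interferon-inducible parts in antigen processing.

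The promoter sequences of the members that the results below turn on are shown here. Psme1, Psme2 and the Psme2 copy Psme2b were chosen because they did not move together with RANKL. Psmb5 and Psmb6 were chosen as catalytic subunits that were called in different directions with RHC80267. Of 13 refits with other tools, other filters or 1 library left out, 1 lost the call of Psmb5 and 7 that of Psmb6. The sequences are the 250 bases before the annotated start, from RefSeq (GRCm38.p6), on the strand of the gene. Psme1 lies at chr14:55578494-55581527 on the plus strand and Psme2 near it at chr14:55587440-55591101 on the minus strand, while Psme2b is at chr11:48945345-48946410 on the minus strand, all as the deposited table gives them.
Psme1, chr14:55578244-55578493, plus strand: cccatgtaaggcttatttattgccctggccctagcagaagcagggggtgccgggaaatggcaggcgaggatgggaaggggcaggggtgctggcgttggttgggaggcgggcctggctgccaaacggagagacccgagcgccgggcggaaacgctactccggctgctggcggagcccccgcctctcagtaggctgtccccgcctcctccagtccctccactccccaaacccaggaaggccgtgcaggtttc
Psme2, chr14:55591102-55591351, minus strand: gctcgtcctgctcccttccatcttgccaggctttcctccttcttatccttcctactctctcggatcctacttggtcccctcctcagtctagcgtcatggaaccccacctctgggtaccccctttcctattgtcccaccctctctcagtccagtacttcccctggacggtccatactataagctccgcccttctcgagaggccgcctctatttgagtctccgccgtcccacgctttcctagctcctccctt
Psme2b, chr11:48946411-48946660, minus strand: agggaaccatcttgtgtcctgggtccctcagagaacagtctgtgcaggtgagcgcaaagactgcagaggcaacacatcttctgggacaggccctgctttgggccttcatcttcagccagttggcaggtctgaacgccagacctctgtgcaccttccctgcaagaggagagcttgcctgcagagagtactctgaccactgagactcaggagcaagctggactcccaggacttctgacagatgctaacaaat
Psmb5, chr14:54617996-54618245, minus strand: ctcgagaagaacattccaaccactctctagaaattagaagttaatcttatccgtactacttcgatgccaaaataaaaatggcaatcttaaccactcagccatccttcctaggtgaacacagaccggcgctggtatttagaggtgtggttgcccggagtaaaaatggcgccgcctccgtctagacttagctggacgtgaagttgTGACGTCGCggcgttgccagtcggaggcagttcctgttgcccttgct
Psmb6, chr11:70525107-70525356, plus strand: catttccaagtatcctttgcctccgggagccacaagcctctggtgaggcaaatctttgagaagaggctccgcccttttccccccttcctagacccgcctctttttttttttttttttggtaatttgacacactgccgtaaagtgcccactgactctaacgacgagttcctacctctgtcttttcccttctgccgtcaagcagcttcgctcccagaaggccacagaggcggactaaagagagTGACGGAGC
In Psmb5 and Psmb6 the capitals mark matches to TGACNNNGC, the core of the antioxidant response element. A further stretch of 30 bases of Psme1, chr14:55578493-55578522, which begins at the last base before the start, holds on the opposite strand a match to GAAA, any 2 bases and GAAA again, the core of the interferon-stimulated response element (capitals).
Psme1 around the start: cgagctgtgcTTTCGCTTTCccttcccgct

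The table of promoters had an entry for 38 of the 46 members and none under the symbols Psma8, Psmb1, Psmb2, Psmb7, Psmc3, Psmd3, Psmd7 and Psmg2. Each motif was searched on both strands of the 300 bases from 250 before to 50 after the start. A member or tested gene was counted once if any of its promoter entries held the motif. The shares of all 32851 promoters count each entry, so they are not in the same unit. The spaced GAAA pair occurred in 5 of the 38 members (Psmb3, Psmd4, Psmd9, Psme1 and Psmg4; 13.2%), against 3.44% of all 32851 promoters. TGACNNNGC occurred in 6 (Psmb5, Psmb6, Psmc6, Psmd9, Psmd12 and Psme4; 15.8%), against 12.4%. CGGAAG, an ETS family core, occurred in 22 members (57.9%) and in 16.9% of all promoters, and CCAAT in 13 members (34.2%) and 37.4% of all. Among the 9825 tested genes with an entry the shares were 3.98%, 17.1%, 35.4% and 43.4% for the 4 motifs in that order. These are descriptions of letters in a window: neither Psme2 nor Psme2b held the spaced GAAA pair in it.

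Levels between genes can be set side by side only per transcript length, so FPKM as deposited was used for this. Averaged over the 12 libraries, 14 of the 15 core subunits lay within a narrow band, from 126 FPKM for Psma4 to 210 FPKM for Psma6, a ratio of 1.67, with a median of 167. The exception was Psma8, a testis-type alpha subunit that resembles Psma7, at 1.66 FPKM. The counts of Psma8 and Psma7 were whole numbers in all 12 libraries. The 6 ATPases of the cap ran from 66.2 FPKM for Psmc4 to 127 for Psmc1 (median 79.2), and the 11 non-ATPase subunits from 44.6 for Psmd3 to 196 for Psmd8 (median 73.5). Of the cap chaperones, Psmd9 at 9.99 and Psmd5 at 26.6 FPKM lay below this range, and Psmd10 at 49.0 within it. Among activators the levels spread widely, from 11.6 FPKM for Psme2b to 242 for Psme2, the highest mean of the 46 members over all libraries. Within groups Psme2 was highest in RANKL (269) and with BMS309403 (265), Psme1 in M-CSF (236) and Psma6 with RHC80267 (229). The inhibitor Psmf1 was at 11.04. The core assembly chaperones ran from 15.1 FPKM for Psmg2 to 37.9 for Psmg4. Psmc3ip was at 2.15 FPKM.

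**Figure D1:**
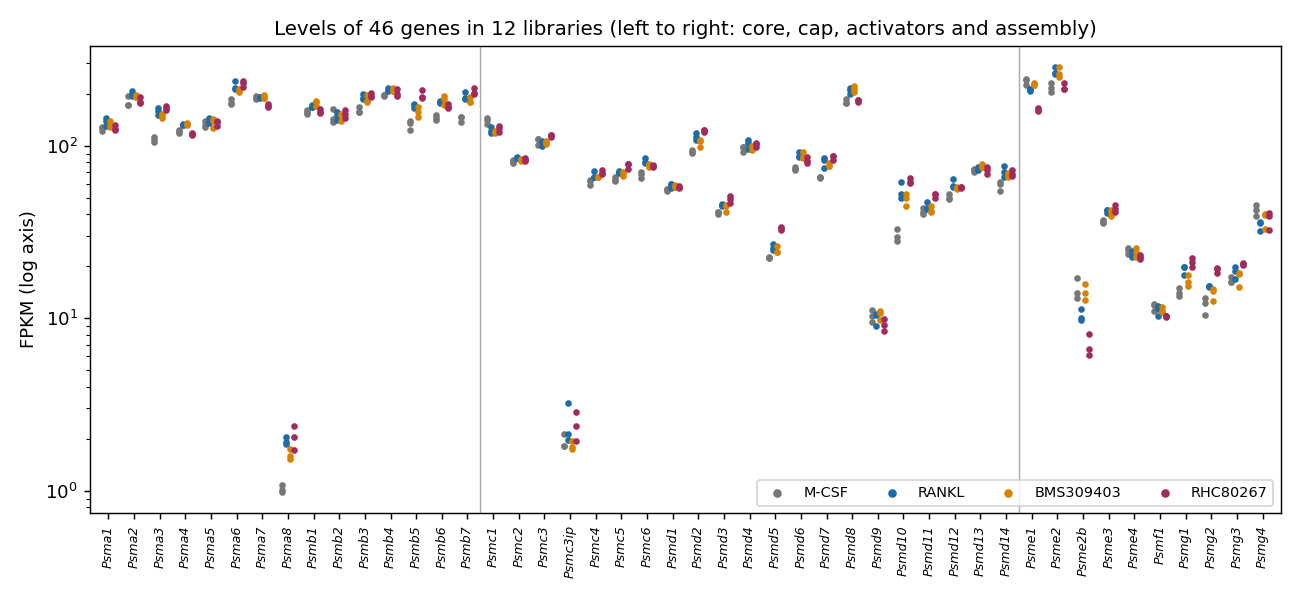
Level of each of the 46 members in FPKM (log axis) in every library, with points coloured by group and genes ordered by name within core, cap, and activators and assembly. The core subunits form a band between 126 and 210 FPKM on average, with Psma8 far below it at 1.66 FPKM and Psmc3ip at 2.15 FPKM.

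RANKL was compared with M-CSF to see what 2 days of RANKL changed. The summed level of all members was 3991 to 4134 CPM in the M-CSF libraries and 4371 to 4468 in the RANKL libraries, with no overlap. CPM here are scaled by TMM, a normalisation that gives each library 1 factor and assumes that most genes do not differ between libraries. Of the 46 members, 24 rose and 4 fell at an adjusted p under 0.05 (edgeR quasi-likelihood test, adjusted over all genes tested). Of all 12168 genes, 31.4% rose and 29.8% fell, 61.2% in all, so the share of members called either way was near the background while the members called leaned to higher. The libraries of the groups did not overlap for 30 of 46 members, against 65.6% of all genes. The median log2 fold change of the members was 0.11, against 0.0028 over all genes. Changes were small: 2 members (4.35%) passed 1.5-fold in either direction, against 20.3% of all genes. In bulk RNA, fewer cells of a type and less RNA per cell cannot be told apart.

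Of the core subunits 10 of 15 rose (66.7%) and 0 fell, and of the cap genes 10 of 21 rose (47.6%) and 1 fell (4.76%). Of all genes tested 31.4% rose and 29.8% fell. Psma3, an alpha subunit of the core, was at 102, 99.6 and 107 CPM in the M-CSF libraries and 148, 144 and 139 in the RANKL libraries. The lowest RANKL library lay well above the highest M-CSF library, and the log2 fold change was 0.49 ± 0.04 (SE; adjusted p = 5.1e-10). Psmd10, the cap chaperone also known as gankyrin, was at 31.7, 37.9 and 34.0 CPM in M-CSF and 68.0, 56.0 and 59.8 in RANKL, again without overlap. Its log2 fold change of 0.83 ± 0.07 (adjusted p = 1.54e-09) was a 1.77-fold rise, and Psmd10 stayed at 51.8 to 70.9 CPM in every library with RANKL. Psma8, at 1.34 to 1.52 CPM in M-CSF and 2.52 to 2.76 in RANKL, had a log2 fold change of 0.88 ± 0.19 (adjusted p = 0.000418); it had 24 to 57 expected counts in a library over all 12.

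All 3 catalytic subunits rose. Psmb7, which carries the trypsin-like site, went from 83.2, 93.3 and 91.3 CPM in M-CSF to 118, 113 and 117 in RANKL, with a log2 fold change of 0.38 ± 0.04 (adjusted p = 1.39e-07). Psmb5, with the chymotrypsin-like site, went from 67.4, 76.9 and 78.5 to 93.3, 94.1 and 91.7 CPM, with a log2 fold change of 0.33 ± 0.06 (adjusted p = 2.9e-05). Psmb6, with the caspase-like site, went from 99.9, 106 and 109 to 124, 125 and 128 CPM, with a log2 fold change of 0.26 ± 0.05 (adjusted p = 4.15e-05). For each of these genes every RANKL library exceeded every M-CSF library. The remaining core genes that rose were Psma6 (log2 fold change 0.27, adjusted p = 1.59e-05), Psmb3 (0.22), Psma2 (0.13), Psma1 (0.10) and Psma4 (0.09). The core genes not called were Psma5, Psma7, Psmb1, Psmb2 and Psmb4, whose log2 fold changes ran from -0.03 (Psma7) to 0.08 (Psmb4).

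Of the 6 ATPases of the cap, 1 rose (Psmc6, log2 fold change 0.23) and 1 fell. Of its 11 non-ATPase subunits 7 rose and 0 fell, and of its 3 assembly chaperones 2 rose and 0 fell. Whether these shares differ from each other or from those of all genes (31.4% higher and 29.8% lower) was not tested. Psmc1, an ATPase of the ring, was at 159, 170 and 174 CPM in M-CSF and 149, 140 and 145 in RANKL, and fell by 0.22 ± 0.04 on the log2 scale (adjusted p = 0.000101). Psmd2, a scaffold of the cap base and the most highly counted member, was at 245 to 254 CPM in M-CSF and 287 to 307 in RANKL, a log2 fold change of 0.26 ± 0.04 (adjusted p = 5.17e-06). Psmd7, partner of the deubiquitinase Psmd14, rose by 0.26 ± 0.04 (adjusted p = 2.73e-05), Psmd14 itself by 0.23 (adjusted p = 0.000537) and the lid subunit Psmd12 by 0.22 (adjusted p = 0.000158). Psmd6 (0.23), Psmd8 (0.18), Psmd5 (0.16) and Psmd3 (0.12) also rose. The ubiquitin receptor Psmd4 had 95.7 to 102 CPM in M-CSF and 96.4 to 107 in RANKL, and its 95% interval ran from -0.05 to 0.16. Psmc2, Psmc3, Psmc4, Psmc5, Psmd1, Psmd9, Psmd11, Psmd13 and Psmc3ip were not called either.

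**Figure D2:**
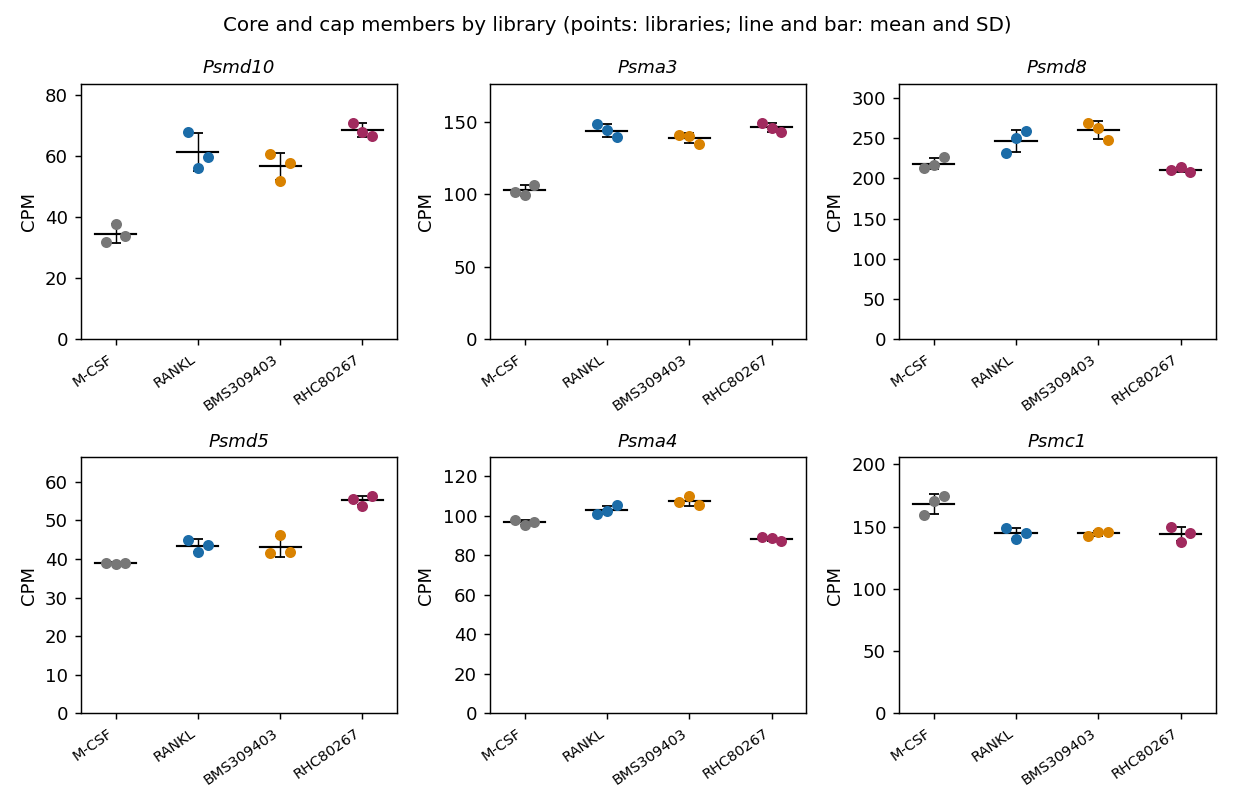
CPM of 6 core and cap members in each library (points), with the group mean (line) and SD (bar) of 3 libraries. Psmd10 and Psma3 are higher in all 9 libraries with RANKL than in the 3 M-CSF libraries, Psmd5 is highest and Psma4 lowest with RHC80267, and Psmc1 is highest in M-CSF.

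The partner genes of the PA28 alpha/beta ring went opposite ways with RANKL. Psme1 was at 159, 152 and 162 CPM in M-CSF and 136, 134 and 141 in RANKL, and fell by 0.20 ± 0.04 on the log2 scale (adjusted p = 4.98e-05). Psme2 was at 132, 121 and 127 CPM in M-CSF and 159, 150 and 151 in RANKL, a log2 fold change of 0.28 ± 0.05 (adjusted p = 2.39e-05). No library of one group overlapped the other for either gene. The ratio of Psme2 to Psme1 in FPKM was 0.896 to 0.946 in M-CSF and 1.22 to 1.34 in RANKL (exact permutation test, two-sided p = 0.1, the smallest that 3 against 3 libraries allow). Psme2b, a near-identical copy of Psme2, fell by 0.54 ± 0.12 (adjusted p = 0.00045), from 10.05 to 12.7 CPM in M-CSF to 7.05 to 8.57 in RANKL. Its counts were not whole in all 12 libraries and those of Psme2 in 11, so some of their reads were divided with other genes. Which genes those were is not given in the sources used here, and the values of both are uncertain.

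Among the other regulators, Psme3 rose by 0.17 ± 0.04 (adjusted p = 0.00101). Psmg1 and Psmg2, which pair to guide assembly of the alpha ring, rose by 0.40 ± 0.08 (adjusted p = 0.00033) and 0.31 (adjusted p = 0.0065). Psmg4, a member of the other chaperone pair, fell by 0.30 ± 0.12 (adjusted p = 0.0345), with overlapping libraries at 7.62 to 9.04 CPM in M-CSF and 5.85 to 7.72 in RANKL. Its partner Psmg3 (0.10), the activator Psme4 (-0.10) and the inhibitor Psmf1 (-0.10) were not called. Calls that were lost when 1 library was left out are those of Psma1, Psma2, Psma4, Psmd3, Psmd5, Psmg2 and Psmg4. Psmg2 had an adjusted p of 0.0636 without M-CSF replicate 1 (log2 fold change 0.21), and Psmd5 of 0.0507 without RANKL replicate 1 (0.13). For Psmg4 the adjusted p was 0.0907 and 0.119 without M-CSF replicates 2 and 3, and 0.198 and 0.0516 without RANKL replicates 1 and 2, with log2 fold changes from -0.33 to -0.19. For Psma1 it was 0.0661, 0.0772 and 0.154 without M-CSF replicates 1, 2 and 3, and 0.18 and 0.115 without RANKL replicates 1 and 2. For Psma4 it was 0.071, 0.147 and 0.0744 without M-CSF replicates 1, 2 and 3, and 0.0842 and 0.142 without RANKL replicates 2 and 3. Psma2 was lost without M-CSF replicates 2 (0.0863) and 3 (0.0723), and Psmd3 without M-CSF replicate 3 (0.0634) and RANKL replicate 1 (0.0505). Over all 13 alternatives, other tools and filters included, the call was lost in 11 for Psma4, 9 for Psma1, 5 for Psmg4 and 3 for Psmd3.

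**Figure D3:**
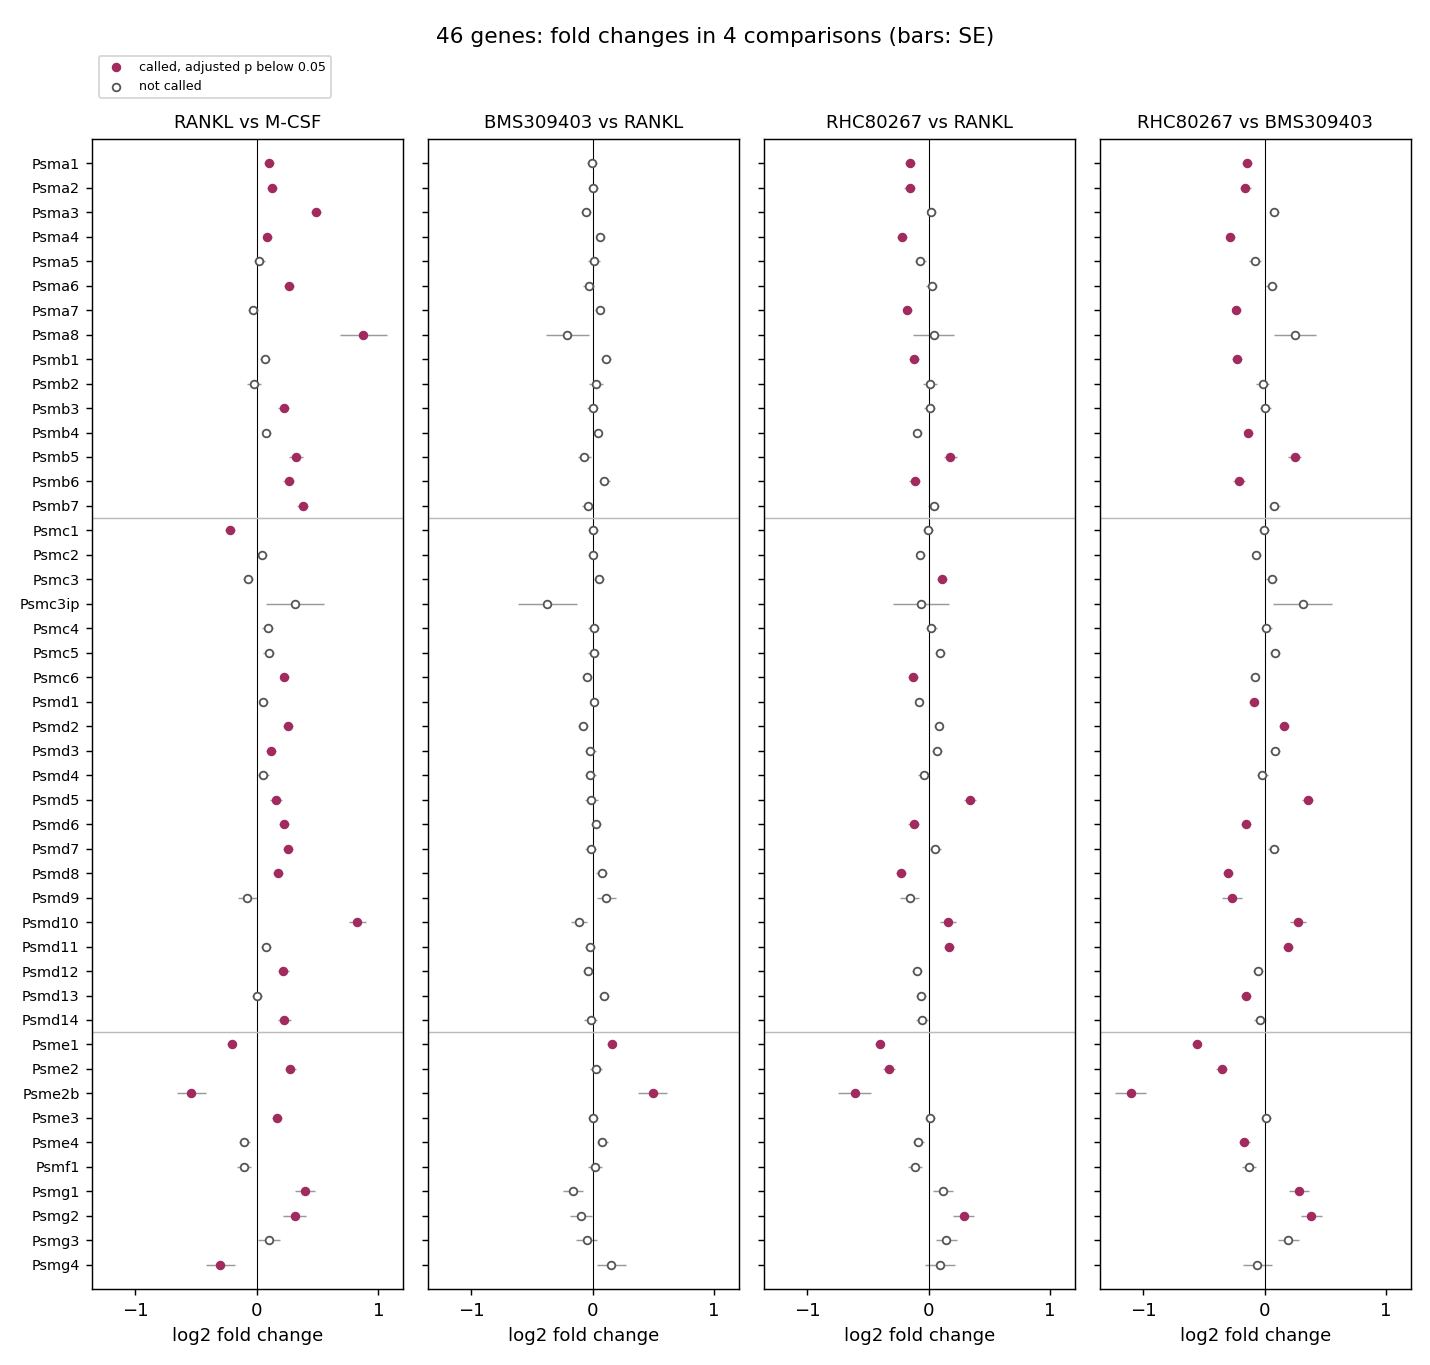
Log2 fold change of each of the 46 members in the 4 comparisons (bars: SE), with filled points for members called at an adjusted p under 0.05. With RANKL most points lie right of 0, with BMS309403 they cluster at 0, and with RHC80267 the lowest points are Psme2b, Psme1 and Psme2.

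BMS309403 was compared with RANKL alone to see what adding this FABP4 inhibitor changed under RANKL. Of the 46 members 2 rose and none fell (edgeR, adjusted p under 0.05); of all genes tested 3.49% rose and 3.74% fell, 7.23% in all. At an unadjusted p under 0.05 the counts were 5 higher and 0 lower, against 1144 higher and 1269 lower of all 12168 genes. DESeq2 called 2 members higher and 0 lower, against 4.01% and 3.14% of the genes it tested. Psme1 was at 136, 134 and 141 CPM in RANKL and 153, 153 and 151 with BMS309403, so the inhibitor libraries were all above those with RANKL alone and about as high as the lowest M-CSF library (152). Its log2 fold change was 0.16 ± 0.04 (adjusted p = 0.0119). Psme2b was at 7.05, 7.45 and 8.57 CPM in RANKL and 9.64, 12.1 and 10.7 with BMS309403, a log2 fold change of 0.49 ± 0.12 (adjusted p = 0.0136). Psme2 differed by 0.03 and was not called. The libraries of the groups did not overlap for 7 of 46 members, against 23.3% of all genes. Neither call held without every library: Psme1 had an adjusted p of 0.0662 without RANKL replicate 1, 0.05 (not below the threshold) without RANKL replicate 2 and 0.0515 without BMS309403 replicate 2, and Psme2b had 0.101 without RANKL replicate 1 and 0.105 without BMS309403 replicate 2.

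For the other members the 95% intervals give the sizes of change with BMS309403 that the spread between these libraries allows. The 95% interval of 37 of the 44 members not called lay within 1.2-fold in either direction. The exceptions were Psma8, Psmc3ip, Psmd9, Psmd10, Psmg1, Psmg2 and Psmg4. Psmb6 was at 135, 143 and 125 CPM with BMS309403 against 124, 125 and 128 in RANKL, overlapping, with a log2 difference of 0.10 (adjusted p = 0.238). Psmb1, a core beta subunit without an active site, differed by 0.11. Without BMS309403 replicate 3 these passed the test as well, at 0.16 (adjusted p = 0.0424) and 0.15 (adjusted p = 0.0367), which made 4 members higher. Of all genes in that fit 3.06% were higher and 2.73% lower. Psmd10 was at 60.6, 51.8 and 57.6 CPM with BMS309403, overlapping the RANKL libraries.

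RHC80267 was compared with the same 3 RANKL libraries, so the comparisons of the inhibitors with RANKL share their controls. Of the 46 members 6 rose and 12 fell, while 26.9% of all genes rose and 23.0% fell, 49.9% in all. The libraries did not overlap for 25 members, against 57.9% of all genes. The split was 4 higher and 15 lower with a stricter filter on low counts, where 26.1% of all genes rose and 25.2% fell. It was 4 and 16 with a fit to these groups alone, where 24.5% of all genes rose and 25.7% fell. The median log2 fold change of the members was -0.05, against 0.02 over all genes, and 1 member (2.17%) passed 1.5-fold, against 12.8% of all genes. Summed activators, regulators and assembly genes were at 612 to 616 CPM in RANKL and 536 to 551 with RHC80267. The genes of this group did not fall together: 5 of the 10 log2 fold changes were positive and 5 negative, and all 4 Psmg genes were positive. The largest differences in mean CPM were those of Psme1 (137 and 103) and Psme2 (153 and 122). Summed core genes overlapped (1609 to 1650 and 1534 to 1617 CPM), as did summed cap genes (2146 to 2206 and 2134 to 2180 CPM).

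The members with the largest falls were the PA28 alpha/beta genes. Psme1 was at 105, 103 and 102 CPM with RHC80267 against 136, 134 and 141 in RANKL, and fell by 0.40 ± 0.04 on the log2 scale (adjusted p = 1.27e-08). Psme2 was at 129, 119 and 120 CPM against 159, 150 and 151, and fell by 0.33 ± 0.05 (adjusted p = 5.5e-06). Psme2b was at 5.87, 4.81 and 4.46 CPM against 7.05, 7.45 and 8.57, and fell by 0.61 ± 0.13 (adjusted p = 0.000759). In each of these genes all RHC80267 libraries lay below all RANKL libraries. Psme3, Psme4 and Psmf1 were not called, and for Psme3 the 95% interval ran from -0.08 to 0.11. The ratio of Psme2 to Psme1 in FPKM was 1.32 to 1.39 with RHC80267, overlapping RANKL alone (exact permutation test, two-sided p = 0.3).

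**Figure D4:**
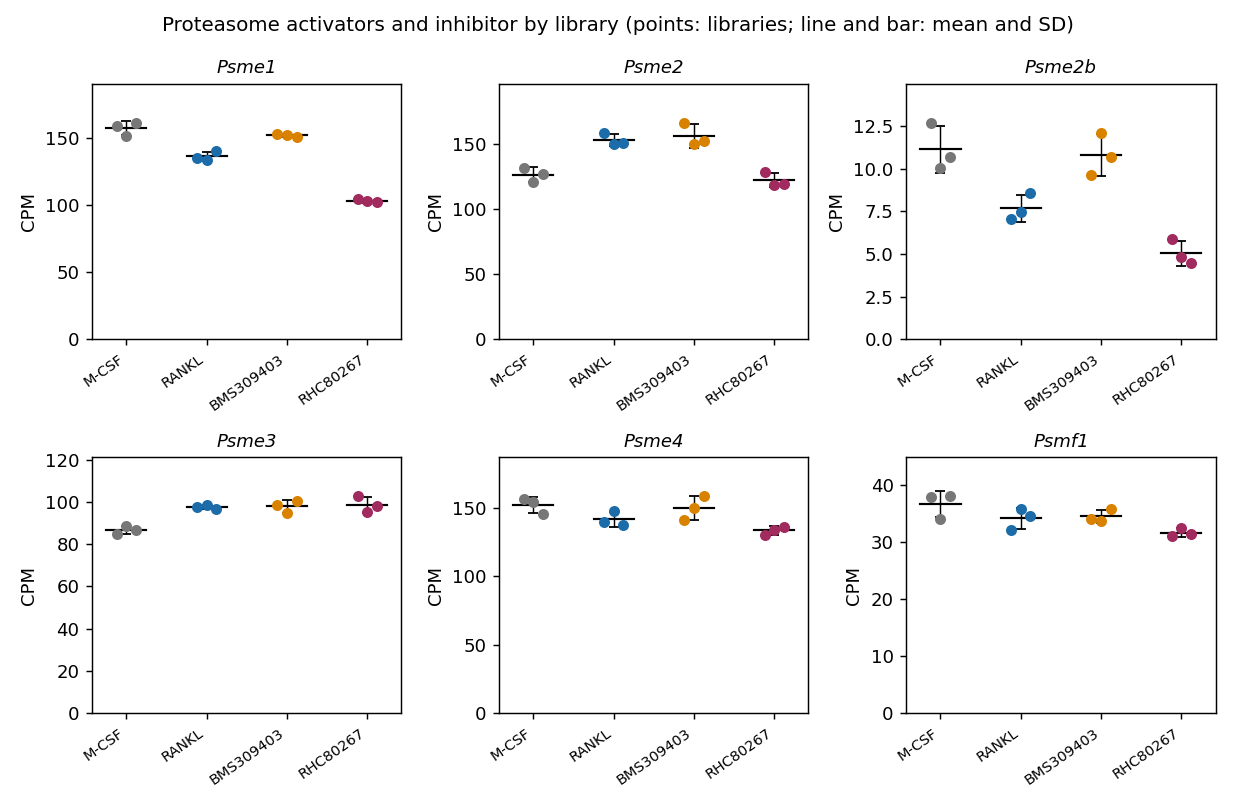
CPM of the activators Psme1, Psme2, Psme2b, Psme3 and Psme4 and the inhibitor Psmf1 in each library (points), with the group mean (line) and SD (bar) of 3 libraries. Psme1, Psme2 and Psme2b are lowest in the 3 RHC80267 libraries apart from the overlap of Psme2 with M-CSF, and Psme1 and Psme2b with BMS309403 are above RANKL alone.

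Interferon-induced genes were set beside Psme1 and Psme2. All 5 of Isg15, Ifit1, Ifit3, Irf7 and Tap1 fell with RHC80267 (median log2 fold change -3.15), 4 of 5 rose with BMS309403 (median 0.57) and 3 of 5 fell with RANKL (median -0.32). The immunoproteasome genes Psmb8, Psmb9 and Psmb10 fell by 0.32, 0.43 and 0.46 with RHC80267. With RANKL Psmb9 rose by 0.16 and Psmb8 (-0.02) and Psmb10 (-0.06) were not called, and with BMS309403 Psmb10 rose by 0.19 and Psmb8 (0.11) and Psmb9 (0.13) were not called. Summed markers listed for other cells also differed: neutrophil markers were at 744 to 845 CPM in RANKL and 360 to 538 with RHC80267, and 4 of 5 fell. Most of that sum was S100a8 and S100a9, with means of 285 and 472 CPM in RANKL. Ly6g, which was not called, had means of 1.14 CPM in RANKL and 1.19 with RHC80267. Stromal markers were at 4.47 to 10.9 and 11.6 to 48.5 CPM, and 2 of the 4 tested rose. The highest stromal sum was that of RHC80267 replicate 1. Its Col1a1 was at 21.1 CPM, against 6.10 and 4.72 in replicates 2 and 3, and its Col1a2 at 24.6, against 5.34 and 5.21. The part of these genes in the results with RHC80267 was not tested.

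The core fell with RHC80267 in 6 of 15 genes (40%) and rose in 1 (6.67%), against 23.0% lower and 26.9% higher of all genes. Psma4, an alpha subunit, was at 101, 102 and 105 CPM in RANKL and 89.1, 88.8 and 87.2 with RHC80267, below the M-CSF libraries (95.4 to 97.8) as well, and fell by 0.22 ± 0.04 (adjusted p = 4.68e-05). Psma7 fell by 0.17 ± 0.04 (adjusted p = 0.000771), Psma2 by 0.16 (adjusted p = 0.00498), Psma1 by 0.15 (adjusted p = 0.0053), Psmb1 by 0.12 (adjusted p = 0.017) and Psmb6 by 0.11 (adjusted p = 0.0444). Psmb5 was the core gene that rose, at 112, 101 and 103 CPM against 93.3, 94.1 and 91.7, with a log2 fold change of 0.18 ± 0.05 (adjusted p = 0.00847). Psmb7 differed by 0.04 and was not called. Calls were lost for Psmb5 without RHC80267 replicate 1 (0.13, adjusted p = 0.0666), and for Psmb1 without RANKL replicate 3 (adjusted p = 0.0564) or RHC80267 replicate 2 (0.0651). Psmb6 was lost without RANKL replicates 1 (0.0572), 2 (0.0558) and 3 (0.125) and without RHC80267 replicates 2 (0.098) and 3 (0.13).

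Within the cap 4 of 21 genes rose (19%) and 3 fell (14.3%), against 26.9% and 23.0% of all genes. Psmd5, a chaperone of the ATPase ring, was at 55.5, 53.8 and 56.2 CPM with RHC80267 against 45.0, 41.7 and 43.8 in RANKL, a log2 fold change of 0.34 ± 0.05 (adjusted p = 5.09e-06). Psmd11, a lid subunit, rose by 0.17 ± 0.04 (adjusted p = 0.00212), Psmd10 by 0.16 (adjusted p = 0.0487) and Psmc3 by 0.11 (adjusted p = 0.0311). Psmd8, another lid subunit, was at 211, 214 and 208 CPM against 232, 250 and 259 in RANKL, and fell by 0.23 ± 0.04 (adjusted p = 0.00013). Psmc6 fell by 0.13 (adjusted p = 0.00852) and Psmd6 by 0.12 (adjusted p = 0.0215). Psmg2 rose by 0.29 ± 0.09 (adjusted p = 0.00879), from 11.5 to 11.9 CPM in RANKL to 13.8 to 14.6 with RHC80267. Psmd10 was lost without any 1 of RANKL replicates 2 (0.09, adjusted p = 0.325) and 3 (0.131) and RHC80267 replicates 1 (0.148), 2 (0.0774) and 3 (0.0583). Psmc3 was lost without RANKL replicate 2 (0.25) and RHC80267 replicates 1 (0.072) and 3 (0.0788), and Psmd6 without RANKL replicate 1 (0.0739) and RHC80267 replicates 2 (0.107) and 3 (0.0605). Over all 13 alternatives the call was lost in 9 for Psmd10, 7 for Psmc3 and 7 for the core gene Psmb6.

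The inhibitors were then compared with each other at the same 1 µM dose and time, a comparison that uses no RANKL-alone library in its difference. Of the 46 members 7 were higher and 16 lower with RHC80267, against 30.1% and 25.5% of all genes, 55.5% in all. The libraries did not overlap for 32 members, against 61.7% of all genes. Psme1, at 153, 153 and 151 CPM with BMS309403 and 105, 103 and 102 with RHC80267, had a log2 difference of -0.56 ± 0.04 (adjusted p = 3.95e-11). The log2 difference of Psme2b was -1.10 ± 0.13 (adjusted p = 2.17e-07) and of Psme2 -0.35 ± 0.05 (adjusted p = 1.32e-06). Core and cap genes with lower levels included Psma4 (-0.28, adjusted p = 1.45e-06), Psma7 (-0.23, adjusted p = 2.87e-05), Psmb1 (-0.23, adjusted p = 5.48e-05) and Psmd8 (-0.30, adjusted p = 3.19e-06). Higher with RHC80267 were Psmg2 (0.39, adjusted p = 0.00083), Psmd5 (0.35, adjusted p = 2.62e-06), Psmg1 (0.28, adjusted p = 0.00529), Psmd10 (0.27, adjusted p = 0.00149), Psmb5 (0.25, adjusted p = 0.000573), Psmd11 (0.19, adjusted p = 0.0006) and Psmd2 (0.16, adjusted p = 0.00124). Psme4, which was not called with either inhibitor against RANKL, was lower (log2 difference -0.17, adjusted p = 0.00302). No Psmc gene was called, and Psme3 (95% interval -0.08 to 0.10), Psmd4 (-0.12 to 0.08) and Psmb2 (-0.15 to 0.11) were among the 23 members not called. The call of Psmd1 (-0.09, adjusted p = 0.0355) was lost without RHC80267 replicate 1, 2 or 3 (adjusted p = 0.0572, 0.0941 and 0.0769).

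The catalytic subunits can be set beside the immunoproteasome subunits that replace them. In FPKM, Psmb8 to Psmb5 was 0.952 to 1.06 in M-CSF, and 0.762 to 0.782 in RANKL, then 0.794 to 0.962 in the BMS309403 libraries and 0.543 to 0.565 in the RHC80267 libraries. Psmb10 to Psmb7 was 0.502 to 0.632, 0.389 to 0.426, 0.467 to 0.492 and 0.273 to 0.303 in the same order, and Psmb9 to Psmb6 0.442 to 0.477, 0.423 to 0.441, 0.399 to 0.476 and 0.311 to 0.360. The RHC80267 libraries had the lowest ratio for each pair, without overlap with RANKL alone (exact permutation test, two-sided p = 0.1 for each pair, the smallest possible). The M-CSF and RANKL ratios did not overlap either (exact permutation test, two-sided p = 0.1 for each). Ratios are of RNA and say nothing of assembled particles.

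**Figure D5:**
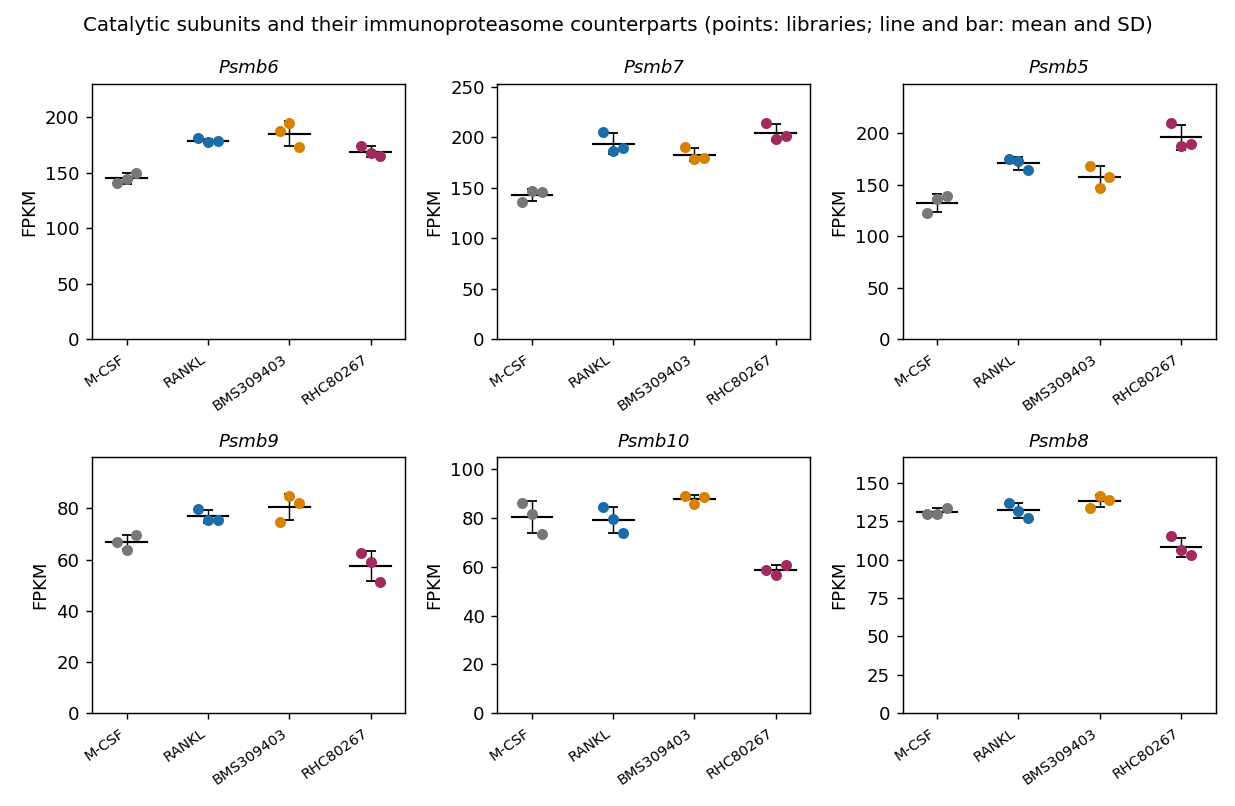
FPKM of the catalytic subunits Psmb6, Psmb7 and Psmb5 (top) and of the immunoproteasome subunits Psmb9, Psmb10 and Psmb8 (bottom) in each library (points), with the group mean (line) and SD (bar) of 3 libraries. The top row is lowest in M-CSF and the bottom row is lowest with RHC80267, where Psmb5 is highest.

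Other genes of the pathway came from lists. Beside their counts, 31.4% of all genes tested rose and 29.8% fell with RANKL. The shares were 3.49% and 3.74% with BMS309403, and 26.9% and 23.0% with RHC80267. Whether the lists differ from these shares was not tested. Of 14 proteasome-associated genes, 13 were in the table; 8 rose and 1 fell with RANKL, 0 and 1 with BMS309403, and 3 and 3 with RHC80267. Pomp, the maturation factor of the core, was not called with RANKL (-0.09) or BMS309403 (0.12) and fell by 0.17 with RHC80267. The ubiquitin receptor Adrm1 rose by 0.12 with RANKL, and Sem1, a small lid subunit, fell by 0.12. The largest rises of this list with RANKL, named after their values were seen, were those of Ublcp1 (1.34), Zfand5 (0.78) and Usp14 (0.51). Of 12 transcription factors and processing factors of proteasome genes, 2 rose and 7 fell with RANKL, none was called with BMS309403, and 4 rose and 3 fell with RHC80267. The largest changes of that list with RANKL, also named after their values were seen, were those of Maff (1.34) and Foxo3 (-0.64). Nfe2l1, which drives proteasome genes when the proteasome is inhibited, was not called with RANKL (-0.06) and rose by 0.17 with RHC80267. Nfe2l2, the related antioxidant factor, fell by 0.25 with RANKL and by 0.30 with RHC80267, and Ddi2, the protease that releases Nfe2l1, fell by 0.19 with RANKL. Of 17 ubiquitin, E1 and shuttle genes, 7 rose and 4 fell with RANKL, none was called with BMS309403, and 9 rose and 1 fell with RHC80267.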

How the data were processed

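Gene expression was measured by RNA sequencing in 12 libraries, 3 in each of 4 groups named by the labels. The authors deposited RSEM expected counts and FPKM per gene; the tools were Bowtie2, RSEM 1.3.1 and DESeq2 1.4.5, per the submitters' processing notes. Expected counts, as deposited, are estimates that divide reads between similar genes, and 9.49 to 9.89% of values per library were not whole. FPKM, as deposited by the authors, were used only to describe levels and ratios. A further 24 per-sample columns were not used. Expected counts were rounded to whole numbers and fitted in edgeR 4.0.16 (R 4.3.3) by the quasi-likelihood test over all 12 libraries with TMM factors, filterByExpr and Benjamini-Hochberg adjustment over 12168 genes; genes were called at an adjusted p below 0.05. CPM are expected counts divided by the TMM-scaled library totals. Ratios were compared with exact permutation tests (scipy 1.17.1). Scripts were tested on simulated data. Alternatives were DESeq2 1.42.0, limma 3.58.1 (voom), other factors and filters, a fit to the groups compared, a replicate block and leaving out each library. The genes named include every member of a fixed set of subunits and regulators and the 3 with the smallest p per role group, direction and comparison. Others were named in groups where most were called. Some fall outside these rules, such as Psma1, Psmb1 and Psmd10 with RHC80267 and genes of the lists and markers. One gene of a comparison list is not reported here. The members and gene lists were chosen with earlier results of these data known. Promoter sequences are from RefSeq (GRCm38.p6).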

Additional observations from a re-analysis of the deposited data

How the results depend on the processing

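In 13 alternatives per comparison no member changed direction while called in either setting. The calls never lost were 21 of 28 with RANKL, 0 of 2 with BMS309403, 12 of 18 with RHC80267 and 22 of 23 between the inhibitors. Leaving out 1 library at a time, the members higher with RANKL numbered 21 to 23 and lower 3 to 5. Of all genes in these fits 28.6% to 29.3% were higher and 27% to 28.1% lower. With BMS309403 the members numbered 0 to 4 and 0 (all genes, 1.24% to 3.85% and 0.904% to 4.38%). With RHC80267 they numbered 3 to 7 and 9 to 13 (21.7% to 25.2% and 20.2% to 21.7%). Between the inhibitors they numbered 7 to 8 and 15 to 18 (24.5% to 27.5% and 22.9% to 26%). With BMS309403 the count was 0 without RANKL replicate 1 or BMS309403 replicate 2, 1 without RANKL replicate 2 and 4 without BMS309403 replicate 3; with RHC80267 it was 3 higher without RHC80267 replicate 1. The cause was not tested, and fewer libraries enter each of these fits. The median log2 fold change with RHC80267 was -0.0117 without RANKL replicate 1 and -0.0122 without RHC80267 replicate 2, and that between the inhibitors was -0.0667 without BMS309403 replicate 2. Same-numbered libraries deviated together no more than others (correlation -0.092 to 0.0936 over 18 pairs), and 5 of 12 libraries were closest to their own number. The numbers were thus not taken to pair them. With a replicate block 23 members rose and 4 fell with RANKL, against 31.1% and 29.6% of all genes. The counts were 2 and 0 with BMS309403 (3.59% and 3.47%), 6 and 11 with RHC80267 (26.8% and 22.9%), and 7 and 16 between the inhibitors (29.9% and 25.4%). Depth limits Psma8 and Psmc3ip, with at most 57 and 38 expected counts in a library.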
